A study of Homo sapiens with 29 samples.

Results

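The 46 genes described here encode proteins that build the mitotic spindle, attach chromosomes to it and carry a cell through division. They were chosen by name as a set of mitosis and spindle genes, with earlier results of these data known. They were found by symbol in the deposited count table, where all 46 are present among 60675 genes. The samples are WM239A cells, an established line from a human metastatic melanoma, and polyadenylated RNA was sequenced in 29 libraries of 10 groups. Cells given extra BRAF-V600E, an activated mutant kinase upstream of ERK signalling, were collected after 20 hours in LGX818 at 500 nM and after 7 days in it, called week 1. LGX818 (encorafenib) inhibits the BRAF kinase. A continuous arm stayed on the drug for 14, 21 and 28 days, called weeks 2, 3 and 4. An intermittent arm left the drug for 7 days in DMSO (week 2 off drug), went back on it for 7 days (week 3 rechallenged) and left it again for 7 days (week 4 off drug). They were set against untreated cells with added BRAF-V600E, and these against untreated cells with the vector. Each group had 3 libraries, except week 4 continuous with 2. All groups share 1 line, all but the vector group carry the added BRAF-V600E, and the labels do not say which promoter drives it, whether the line is a clone, or whether replicate libraries were grown as separate cultures. Each p-value therefore measures the spread between these libraries, which may be technical. No untreated cells were sampled at the later weeks, so time in culture and drug cannot be told apart in comparisons with untreated cells.

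Mitosis begins when cyclin B bound to the kinase CDK1 becomes active and chromosomes condense. Kinetochores then bind spindle microtubules under the watch of the spindle checkpoint, and CDC20 with the anaphase-promoting complex starts the separation of sister chromatids once all are attached. Transcripts of these genes accumulate late in the cell cycle, so in bulk RNA their level is widely read as a mark of proliferation. A lower level can come from fewer cells in that stage or from less RNA per cell, and these cannot be told apart here. The members fall into 11 cyclins, mitotic kinases and their regulators, 7 genes of the checkpoint and anaphase-promoting complex, 6 of the centromere and kinetochore, 3 of the chromosomal passenger complex, 6 kinesins, 7 of spindle assembly and cytokinesis, and 6 of chromosome structure.

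Total counts ran from 22934039 to 35804978 per library, and all 46 members passed the filter on low counts that left 20494 genes for testing. Levels are given in CPM, counts scaled to a common library total after TMM normalization. Medians over all tested genes lay between -0.04 and 0.06 (log2) in the comparisons below. In 4 groups, 1 library stood apart from the other replicates (chi-square per gene over 15 against both): replicate 3 of week 2 continuous, replicate 3 of week 2 off drug, replicate 1 of week 3 continuous and replicate 1 of week 3 rechallenged. Counts of called members are given without these 4 libraries below where they enter. BRAF averaged 895 CPM in untreated BRAF-V600E cells and 40.2 CPM in vector cells. DUSP6, an ERK target, averaged 658 CPM at week 2 off drug and 613 CPM at week 4 off drug, against 11 to 144 CPM in the 6 groups on drug. All 8 melanocyte markers were at or above 1 CPM in every group, but their level was not steady. Their sum was 2459 CPM in untreated BRAF-V600E cells, 8454 CPM at 20 hours and 915 CPM at week 1. It was 376 CPM at week 2 continuous, 457 CPM at week 4 continuous and 1025 CPM at week 4 off drug. Summed endothelial, leukocyte and epithelial markers reached at most 29, 9.69 and 21.3 CPM. Summed fibroblast markers were 257 to 2305 CPM in the 5 groups on drug from week 1 onward and at most 15.9 CPM in the others, with COL1A1 alone at 224 to 2179 CPM in those 5 groups. Of the 6 markers, 5 or 6 were at or above 1 CPM in those groups and 1 to 3 in the others. None of the 6 had 0 counts in any group, and their part in the results was not tested. Mitochondrially encoded genes held 8.57 to 20.7% of counts per library, highest at 20 hours.

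Promoters of these genes are known for a pair of short sequence elements: the CCAAT box, bound by NF-Y, and the cell cycle genes homology region (CHR), bound by the MuvB complexes that repress late cell cycle genes in resting cells and activate them in dividing cells. RefSeq promoters (GRCh38.p14, 250 bases before to 50 after the start) matched 39 members with 51 promoters. The CHR was searched as TTTGAA or TTCGAA and the CCAAT box as CCAAT, each on both strands. A CHR was in 34 of the 51 member promoters (66.7%), against 16.4% of 35116 promoters in the table. A CCAAT box was in 35 (68.6%), against 34.6%, and both were in 26 (51%), against 6.38%. The 120 bases before the start are printed 5′ to 3′ for 5 members, chosen by hand to show how the elements are spaced. Capitals mark the CHR and CCAAT letters, with ATTGG where the box is on the other strand. The windows are chr16:23678769-23678888 on the plus strand (PLK1), chr15:59105026-59105145 on the plus strand (CCNB2), chr1:43358861-43358980 on the plus strand (CDC20), chr10:128126424-128126543 on the minus strand (MKI67) and chr5:69167030-69167149 on the plus strand (CCNB1).
PLK1: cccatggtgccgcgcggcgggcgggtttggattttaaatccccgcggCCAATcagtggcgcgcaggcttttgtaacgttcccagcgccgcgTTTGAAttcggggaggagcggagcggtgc
CCNB2: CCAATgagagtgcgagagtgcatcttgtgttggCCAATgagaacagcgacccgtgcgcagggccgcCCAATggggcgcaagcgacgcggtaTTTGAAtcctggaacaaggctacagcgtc
CDC20: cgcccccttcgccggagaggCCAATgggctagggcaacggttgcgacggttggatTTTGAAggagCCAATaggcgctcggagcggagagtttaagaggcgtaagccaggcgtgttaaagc
MKI67: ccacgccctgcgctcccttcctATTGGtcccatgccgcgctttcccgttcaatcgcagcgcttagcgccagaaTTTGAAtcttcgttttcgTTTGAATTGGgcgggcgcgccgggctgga
CCNB1: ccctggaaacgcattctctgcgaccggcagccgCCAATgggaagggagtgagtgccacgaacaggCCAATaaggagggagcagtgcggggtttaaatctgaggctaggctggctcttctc
In PLK1, CCNB2 and MKI67 a CHR starts 29 bases before the RefSeq start, and in each of these a CCAAT box lies upstream of it. MKI67 holds another CHR further upstream, and its CHR nearest the start shares 1 base with a second CCAAT box. The CCNB1 window holds 2 CCAAT boxes and none of the searched CHR letters.

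Added BRAF-V600E changed few of these genes without drug. FOXM1, a transcription factor for late cell cycle genes, was 125, 126 and 124 CPM in BRAF-V600E cells, against 162, 160 and 156 CPM in vector cells, with a log2 change of -0.35 (SE 0.08, adjusted p = 0.00106). The kinetochore gene NUF2 was 32.3, 38 and 32.1 CPM in BRAF-V600E cells, against 24, 23.4 and 25.2 CPM in vector cells, with no overlap. It rose by 0.50 (SE 0.11, adjusted p = 0.00107). The other members that rose were the spindle protein gene HMMR by 0.43, the kinetochore gene SPC25 by 0.36 and PTTG1, which encodes securin, by 0.32. In all, 4 members were higher and 1 lower at an adjusted p under 0.05 (edgeR quasi-likelihood test), beside 7.04% of all tested genes called higher and 9.92% lower, and the median over the members was 0.04. MKI67 (-0.05 ± 0.20 SE), CCNB1 (0.10 ± 0.09) and PLK1 (0.03 ± 0.09) were not called. SPC25 and PTTG1 each lost the call without BRAF-V600E replicate 2 or 3 or vector replicate 2, and SPC25 also without vector replicate 1 and PTTG1 without vector replicate 3 (adjusted p up to 0.15 and 0.121). A fit of these 2 groups alone called 10 members, and leaving out single libraries gave 3 to 6, with 3 without vector replicate 2, BRAF-V600E replicate 2 or BRAF-V600E replicate 3.

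After 20 hours of LGX818 every member fell relative to untreated BRAF-V600E cells, with a median log2 change of -2.88 (0.06 over all tested genes) and 25.2% of all tested genes called lower. The change ran from -4.50 for SPC25 to -0.72 for CDC25B, the phosphatase that helps switch CDK1 on. SPC25, a subunit of the NDC80 kinetochore complex, was 1.46, 0.991 and 1.23 CPM (35, 23 and 31 counts) at 20 hours, against 26.3, 30.3 and 27.3 CPM in untreated cells. UBE2C, the ubiquitin-conjugating enzyme of the anaphase-promoting complex, was 3.14, 2.63 and 2.69 CPM at 20 hours, against 47.8, 57.5 and 57.6 CPM in untreated cells. These were the lowest levels relative to untreated cells, at 4.39% for SPC25 and 5.19% for UBE2C, with the 3 libraries of each group close together. The falls were 22.7-fold for SPC25 (adjusted p = 9.96e-20) and 19.3-fold for UBE2C (adjusted p = 8.08e-22).

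The mitotic kinases fell with them. CDK1 was 2.93, 3.88 and 3 CPM at 20 hours, against 37, 39.4 and 41.6 CPM in untreated cells (log2 -3.59 ± 0.12 SE). AURKB, the enzyme of the chromosomal passenger complex that corrects faulty attachments, was 5.73, 4.61 and 4.94 CPM at 20 hours, against 57.6, 70.6 and 63.7 CPM in untreated cells (log2 -3.65 ± 0.14). No library of either group overlapped the other for any of the 46 members, beside 28.2% of all tested genes that lay lower at 20 hours without overlap. PLK1, a kinase needed for spindle poles and for exit from mitosis, changed by -2.82 and the cyclin gene CCNB1 by -2.63. MKI67, the gene of the proliferation marker Ki-67, changed by -3.13 and TOP2A, the topoisomerase that untangles chromatids, by -3.19. The smallest falls were CDC25B, the checkpoint gene BUB3 (-1.01) and FOXM1 (-1.28). CDC25B was 67.3, 61.3 and 66.5 CPM at 20 hours, against 109, 106 and 107 CPM in untreated cells. BUB3 was 35, 39.7 and 34.4 CPM at 20 hours, against 73.1, 75.9 and 70.9 CPM in untreated cells. By role, the medians were -3.16 for chromosome structure, -3.07 for the centromere and kinetochore, -3.02 for kinesins, -2.82 for cyclins and kinases, -2.81 for spindle assembly, -2.78 for the checkpoint group and -2.27 for the passenger complex. AURKB was counted with the kinases, so the passenger complex group held only BIRC5, CDCA8 and INCENP.

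**Figure D1:**
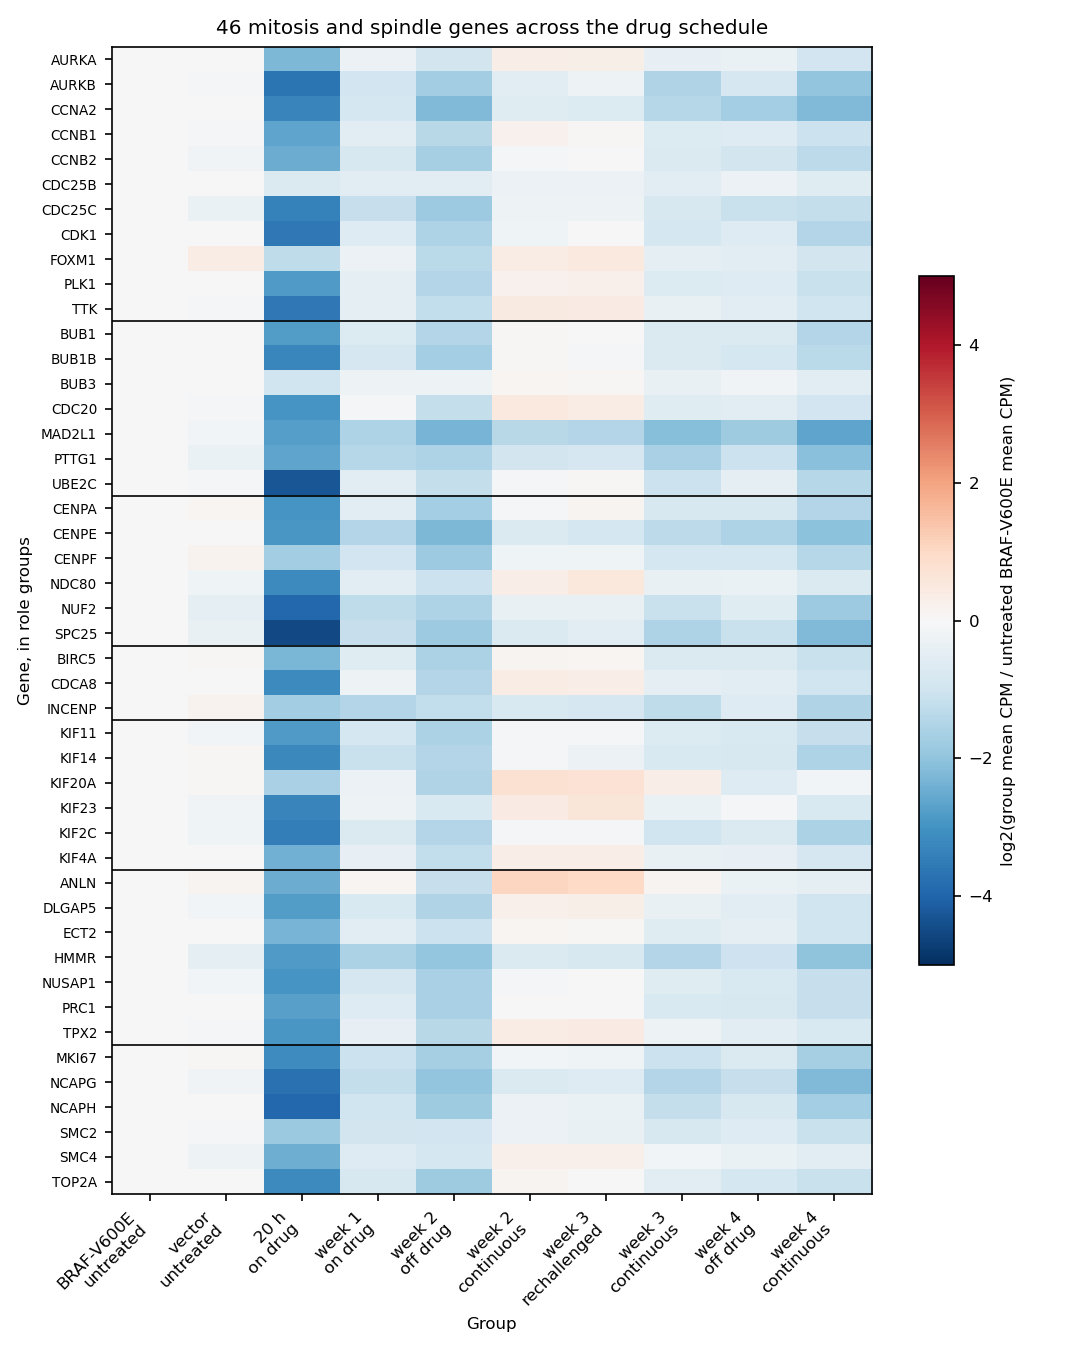
Heat map of the log2 ratio of each group's mean CPM to the mean of untreated BRAF-V600E cells (colour scale, blue lower and red higher) for the 46 genes (rows, in role groups divided by lines) and the 10 groups (columns). The column at 20 hours is the darkest blue for nearly all rows, and week 2 off drug and week 4 continuous are the next darkest, while week 2 continuous and week 3 rechallenged are near white for most genes, with ANLN and KIF20A in light red and MAD2L1 in blue.

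At week 1 on drug all 46 members were higher than at 20 hours, with a median of 2.10 and 28.6% of all tested genes called higher. UBE2C rose 13.5-fold and SPC25 10.2-fold, while INCENP, the scaffold of the passenger complex, rose by 0.27 (adjusted p = 0.0379) and CDC25B by 0.17 (adjusted p = 0.0329). CDC25B lost its call without 20-hour replicate 2 or week 1 replicate 2, and INCENP without 20-hour replicate 1 or 2 or week 1 replicate 1 or 3 (adjusted p up to 0.153 and 0.11 over the alternatives). At week 1, 44 members were below untreated cells (median -0.72), where 26.7% of all tested genes were called lower. HMMR was 24.4, 24.3 and 29.4 CPM at week 1, against 78.9, 77.5 and 73.8 CPM in untreated cells, 2.95-fold lower (adjusted p = 3.58e-13). MAD2L1, which encodes the checkpoint protein MAD2, was 21.2, 22 and 23.5 CPM at week 1, against 64.6, 68.8 and 62.2 CPM in untreated cells, 2.93-fold lower (adjusted p = 3.18e-14). The week 1 libraries of both genes lay far under every untreated one. CDCA8 (-0.24) and KIF23 (-0.24) fell least among those called. CDCA8 lost its call without untreated replicate 3, KIF23 without week 1 replicate 2, and both without a count filter (adjusted p up to 0.0991 and 0.0734). The members not called were ANLN, which encodes the cleavage-furrow protein anillin (0.12 ± 0.09, adjusted p = 0.304), and CDC20 (-0.10 ± 0.12, adjusted p = 0.47).

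The level in the continuous arm changed with time. At week 2 continuous 45 members were higher than at week 1 (median 0.71), where 16% of all tested genes were called higher, and the median member stood at 96.5% of its untreated level. Without replicate 3 of week 2 continuous and the other libraries that stood apart, 44 were called. KIF20A, the kinesin that carries the passenger complex to the central spindle, was 134, 124 and 125 CPM at week 2 continuous, against 60.7, 62.2 and 63.4 CPM at week 1, a 2.06-fold rise (adjusted p = 2.88e-12). KIF14, a kinesin of cytokinesis, rose 2.08-fold (adjusted p = 1.18e-06). CDC25B (0.24) and CCNA2, the cyclin A gene (0.25), rose least, and MAD2L1 was not called (0.18 ± 0.10, adjusted p = 0.211). CDC25B lost its call without week 1 replicate 1 or 3 or week 2 replicate 2, and CCNA2 without week 1 replicate 1 or 2 or week 2 replicate 1 or 3. Without a count filter neither was called (adjusted p up to 0.125 and 0.158 over the alternatives). MKI67 was 287, 272 and 130 CPM at week 2 continuous, against 124, 117 and 126 CPM at week 1, and its lowest library is the one that stood apart.

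By week 4 continuous most members were below week 1. There were 37 lower and 0 higher, where 19.9% of all tested genes were called lower, with a median of -0.51. The MKI67 call was lost in a DESeq2 fit (adjusted p = 0.06), with a replicate block (adjusted p = 0.0504) and without week 1 replicate 1 or 3. CENPE, CENPF and TOP2A lost the call without week 1 replicate 3, and CENPF also with the block. MKI67, CENPE, CENPF and TOP2A lost it without either week 4 library. KIF4A, NUSAP1 and TPX2 lost it without week 4 replicate 1, and HMMR without replicate 2. CCNA2 was 13.9 and 12.8 CPM at week 4 continuous, against 31.9, 31.8 and 37.4 CPM at week 1, 2.53-fold lower (adjusted p = 1.58e-11). MAD2L1 was 11.5 and 9.17 CPM at week 4 continuous, against 21.2, 22 and 23.5 CPM at week 1, 2.14-fold lower (adjusted p = 1.16e-08). For both genes every week 4 library lay under every week 1 library. KIF11, the motor that pushes spindle poles apart, and BUB3 fell least, each by 0.30, and KIF20A was not called (0.17 ± 0.08, adjusted p = 0.108). KIF11 lost its call without week 1 replicate 3 or either week 4 library, and BUB3 without week 4 replicate 1 (adjusted p up to 0.132 and 0.0701). Against untreated cells 45 members were lower at week 4 continuous (median -1.17), where 26% of all tested genes were called lower, from MAD2L1 at -2.65 and NCAPG, a condensin subunit, at -2.22 to BUB3 at -0.55 and ANLN at -0.45. KIF20A was 67.5 and 71.9 CPM at week 4 continuous, against 75.4, 77.3 and 74.9 CPM in untreated cells (-0.12 ± 0.08, adjusted p = 0.222).

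Taking the drug away after week 1 did not bring these genes up. At week 2 off drug all 46 were lower than at week 2 continuous, with a median of -1.52 and 27.9% of all tested genes called lower. The libraries of the groups did not overlap for 45 of the 46, beside 27.7% of all tested genes that lay lower without overlap. KIF20A was 25.1, 24.6 and 30.2 CPM off drug, against 134, 124 and 125 CPM under continuous drug, 4.78-fold lower (adjusted p = 7.61e-21). ANLN was 93.3, 105 and 126 CPM off drug, against 552, 492 and 475 CPM under continuous drug, 4.69-fold lower (adjusted p = 1.97e-18). The off-drug libraries of KIF20A overlapped those at 20 hours on drug (23.2, 26.2 and 24.2 CPM), while those of ANLN lay above them (41.1, 47 and 42 CPM). PLK1 was 30.3, 37.2 and 39.9 CPM off drug, against 111, 111 and 125 CPM under continuous drug (log2 -1.69 ± 0.10 SE). CCNB1 was 42.7, 42 and 38.1 CPM off drug, against 123, 119 and 139 CPM under continuous drug (log2 -1.64 ± 0.09). MKI67 was 64.1, 69.6 and 107 CPM off drug, against 287, 272 and 130 CPM under continuous drug (log2 -1.52 ± 0.21), and in each group replicate 3 is the one nearest the other group. Without the 4 libraries that stood apart all 46 were again called.

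CDC25B and BUB3 fell least at week 2 off drug, as they did at 20 hours. CDC25B was 73.8, 77.1 and 72.8 CPM off drug, against 86.6, 89.5 and 82.7 CPM under continuous drug, and fell by 0.21 (adjusted p = 0.00943). Its call was lost without a count filter, in a fit of the compared groups alone and without week 2 continuous replicate 2 (adjusted p up to 0.0823). BUB3 was 62.8, 64.7 and 58 CPM off drug, against 75.2, 75.4 and 87 CPM under continuous drug, and fell by 0.36 (adjusted p = 1.91e-04). INCENP was 40.3, 44.3 and 49.8 CPM off drug, against 67.9, 70.4 and 46.3 CPM under continuous drug, the member whose libraries overlapped. Compared with week 1, from which the off-drug cells were taken, 38 members were lower at week 2 off drug and none higher (median -0.77), where 26.8% of all tested genes were called lower. CCNA2 (-1.37) and ANLN (-1.27) fell most, and ECT2, an activator of the furrow GTPase RhoA (-0.51), and HMMR (-0.37) least, the HMMR call being lost without week 1 replicate 3 (adjusted p = 0.059, the highest over its alternatives). Without the 4 libraries that stood apart 41 were lower than at week 1. Compared with untreated cells all 46 were lower (median -1.50), where 28.8% of all tested genes were called lower. MAD2L1 (-2.33) and CENPE, a kinetochore motor (-2.25), fell most, and CDC25B (-0.53) and BUB3 (-0.25) least. The count against untreated cells was 46 without the 4 libraries as well. BRAF averaged 3232 CPM at week 2 off drug, against 1082 CPM at week 2 continuous and 895 CPM in untreated cells. It was as high at the second holiday, at 3404 CPM at week 4 off drug against 1018 CPM at week 4 continuous. The part of BRAF in the members' values was not tested.

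**Figure D2:**
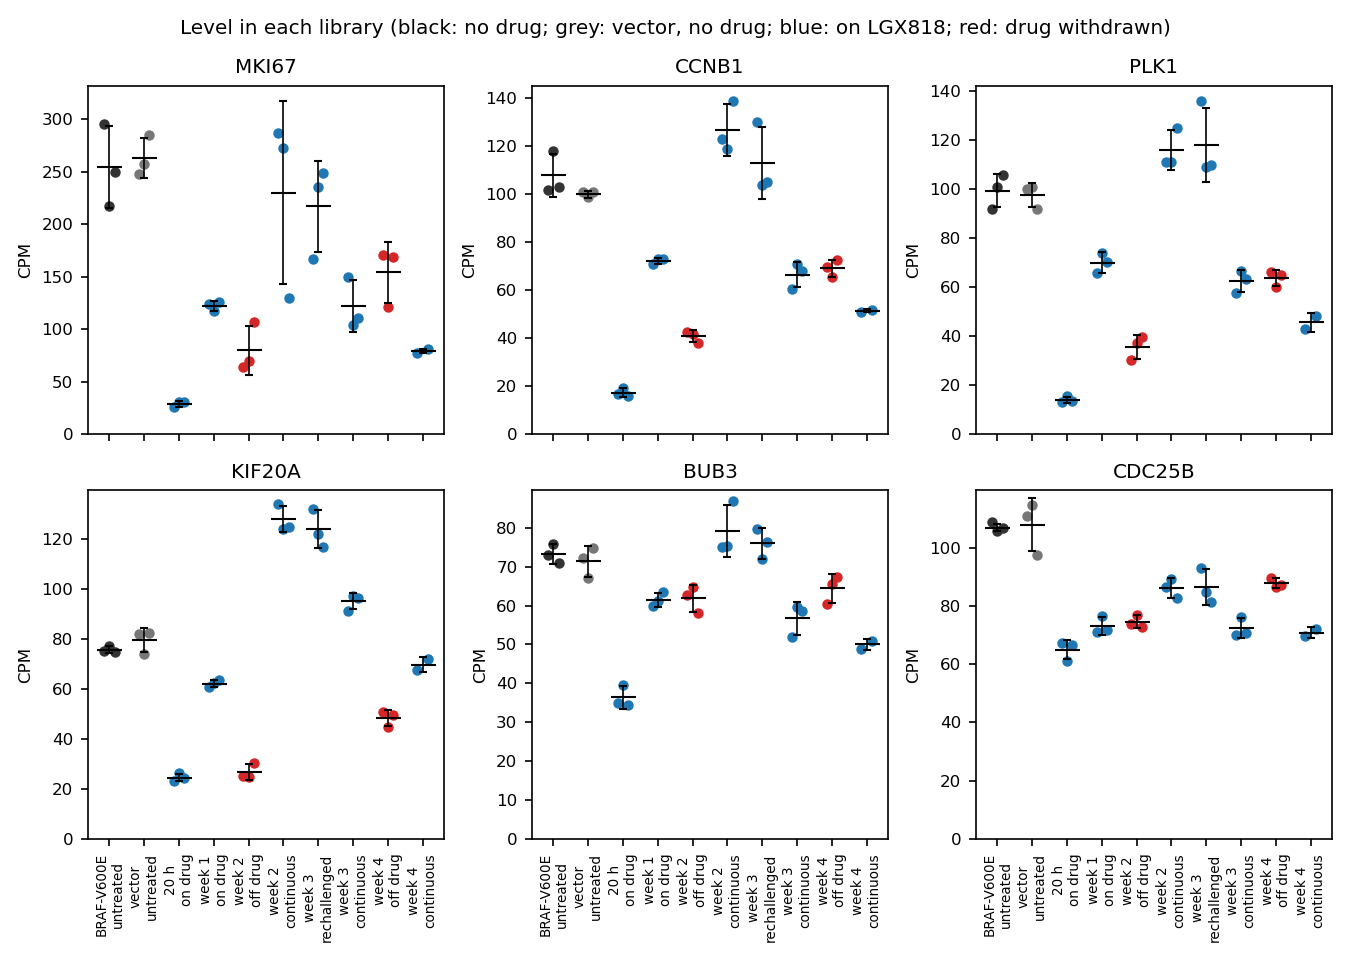
Level in each library (points, CPM) with the group mean and SD (horizontal mark and bar) for MKI67, CCNB1, PLK1, KIF20A, BUB3 and CDC25B in the 10 groups, with groups off drug in red. Off-drug libraries at week 2 lie below week 2 continuous in every panel, and at week 4 they lie above week 4 continuous in every panel but that of KIF20A.

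After the drug was put back the whole set stood higher than off drug. No off-drug cells were sampled at week 3, so drug and time cannot be told apart in this comparison. At week 3 rechallenged all 46 members were higher than at week 2 off drug, with a median of 1.48 and 27.8% of all tested genes called higher, and no library overlapped between the groups for any member, beside 27.2% of all tested genes that lay higher without overlap. KIF20A was 132, 122 and 117 CPM after rechallenge, against 25.1, 24.6 and 30.2 CPM off drug, 4.65-fold higher (adjusted p = 1.34e-20). ANLN was 456, 480 and 513 CPM after rechallenge, against 93.3, 105 and 126 CPM off drug, 4.47-fold higher (adjusted p = 4.26e-18). PLK1 was 136, 109 and 110 CPM after rechallenge, against 30.3, 37.2 and 39.9 CPM off drug (log2 1.72 ± 0.10 SE). The first rechallenged library, which stood apart, was the highest of its group for PLK1. FOXM1 rose by 1.84 and the centromere histone gene CENPA by 1.84, while BUB3 (0.30) and CDC25B (0.22) rose least. CDC25B lost its call without rechallenged replicate 1 and in a fit of the compared groups alone (adjusted p = 0.0625 and 0.0515). The CDC25B call was also lost without the 4 libraries that stood apart (adjusted p = 0.101). Without the 4 libraries that stood apart 45 were called. The median rechallenged member was at 101% of its untreated level, and 25 of the 46 group means were above untreated.

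The first and the second 7 days on drug were compared directly. The log2 change at rechallenge minus that in the first week was positive and called for all 46 members (median 2.26), where 23.3% of all tested genes were called higher. These values share no library, and without the 4 libraries that stood apart 46 were called. CENPE had the largest difference (2.83 ± 0.25 SE, adjusted p = 7.89e-11): it changed by 1.39 at rechallenge and by -1.45 in the first week. CDC25C, a phosphatase that activates CDK1, followed (2.73 ± 0.23, adjusted p = 2.18e-11). BUB3 (0.55 ± 0.11) and CDC25B (0.77 ± 0.10) had the smallest differences. Rechallenge began from off-drug cells with DUSP6 at 658 CPM, and the first week from untreated cells with DUSP6 at 421 CPM. The median member stood at 35.4% of its untreated level at week 2 off drug, 101% at week 3 rechallenged and 60.8% at week 1. The difference thus takes in the lower starting level as well as the level reached.

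**Figure D3:**
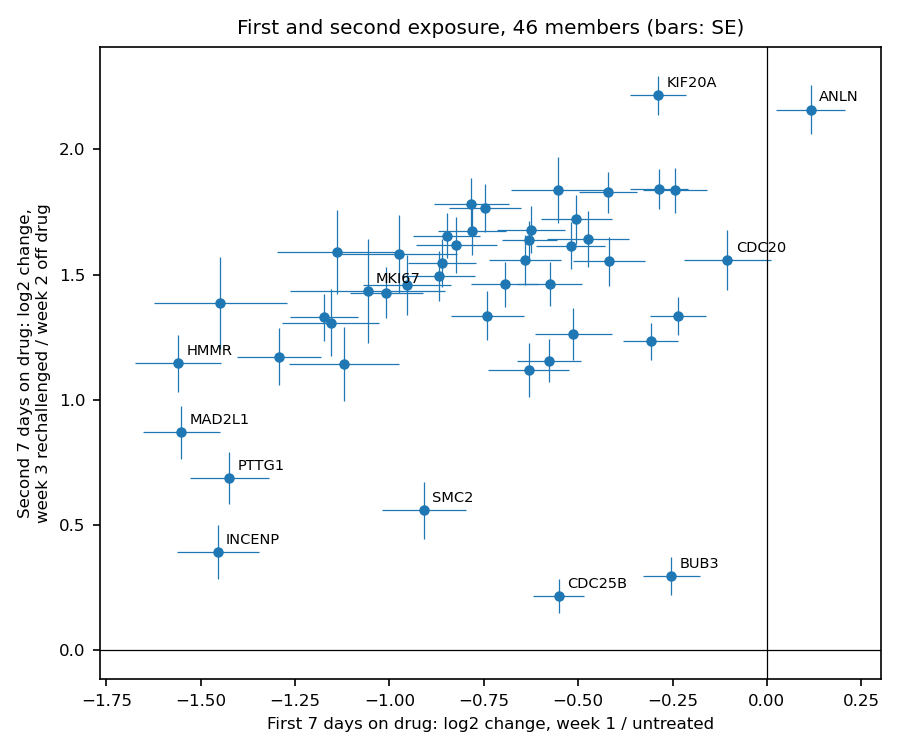
Log2 change of each of the 46 genes (points, bars ± SE) over the second 7 days on drug (vertical axis, week 3 rechallenged over week 2 off drug) against the first 7 days (horizontal axis, week 1 over untreated BRAF-V600E cells). All points lie above 0 on the vertical axis, and all but ANLN lie below 0 on the horizontal axis.

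Rechallenged cells also stood above week 3 cells that had never left the drug. Week 2 continuous cells, with the same 14 days on drug, were not tested against rechallenged cells. The median member was at 96.5% of its untreated level at week 2 continuous and at 101% after rechallenge. At week 3, 45 members were higher in rechallenged than in continuous cells (median 0.74), where 14% of all tested genes were called higher. AURKB was 66.7, 47.9 and 45.4 CPM after rechallenge, against 19.4, 24.9 and 23.6 CPM under continuous drug, 2.35-fold higher (adjusted p = 1.16e-09). UBE2C was 69, 53.3 and 48.4 CPM after rechallenge, against 24.5, 27.4 and 25.7 CPM under continuous drug, 2.2-fold higher (adjusted p = 5.19e-10). In both genes the first rechallenged library was the highest, and the other rechallenged libraries were still above every continuous one. CDC25B (0.26) and KIF20A (0.38) differed least, and CENPE was not called (0.44 ± 0.17, adjusted p = 0.0619). Without the libraries that stood apart, 1 in each of these groups, 44 were called, and CDC25B was not among them (adjusted p = 0.0628, the highest over its alternatives). Against week 1, which had the same 7 days since the last start of drug, 44 members were higher at rechallenge (median 0.72), where 16.6% of all tested genes were called higher. NDC80 (2.08-fold) and DLGAP5, a microtubule-binding protein gene (2.03-fold), rose most, and BUB3 (0.30) and CDC25B (0.24) least. CDC25B lost its call without rechallenged replicate 1 and without a count filter (adjusted p up to 0.0755). Without the 4 libraries 44 were again called higher than at week 1. CCNA2 (0.18 ± 0.09, adjusted p = 0.13) and MAD2L1 (0.09 ± 0.10, adjusted p = 0.541) were not called.

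At the second withdrawal most members fell again. At week 4 off drug 43 members were lower than at week 3 rechallenged and none higher (median -0.69), where 22.3% of all tested genes were called lower. KIF20A was 50.6, 44.9 and 49.7 CPM off drug, against 132, 122 and 117 CPM after rechallenge, 2.56-fold lower (adjusted p = 9.86e-16). ANLN was 197, 176 and 205 CPM off drug, against 456, 480 and 513 CPM after rechallenge, 2.51-fold lower (adjusted p = 3.77e-13). Neither gene had overlapping libraries. PTTG1 (-0.25, adjusted p = 0.0476) and BUB3 (-0.24, adjusted p = 0.0106) fell least, and the PTTG1 call was lost under 8 of 12 alternatives, among them leaving out rechallenged replicate 1 or week 4 off drug replicate 1 or 3 (adjusted p up to 0.39). BUB3 lost its call without rechallenged replicate 1 or week 4 off drug replicate 1 (adjusted p up to 0.0916). MKI67 changed by -0.50 (adjusted p = 0.0461), a call also lost under 8 of 12, among them leaving out any week 4 off drug library or rechallenged replicate 2 or 3 (adjusted p up to 0.25). The NUF2 and SMC2 calls were also lost under several alternatives, among them leaving out week 4 off drug replicate 1 or 2. Their adjusted p rose up to 0.314 and 0.357. KIF14 lost its call without week 4 off drug replicate 2, and MAD2L1 without week 4 off drug replicate 2 or 3. Leaving out the 4 libraries that stood apart gave 42 lower. The log2 change at the second withdrawal (week 4 off drug over week 3 rechallenged) minus that at the first (week 2 off drug over week 1) had a median of 0.08 over the members, and 1 member was called, MAD2L1 at 0.45 ± 0.15 (adjusted p = 0.0332), where 7.6% of all tested genes were called higher. MKI67 differed by 0.11 ± 0.29 and PLK1 by 0.08 ± 0.14. Without the 4 libraries 7 were called, and leaving out single libraries gave 0 to 4. MAD2L1 lost its call without week 1 replicate 2 or 3, week 2 off drug replicate 2, rechallenged replicate 1 or week 4 off drug replicate 1 (adjusted p up to 0.0763).

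Against the continuous arm the second holiday went the other way from the first. At week 4, 40 members were higher off drug than under continuous drug and 1 was lower (median 0.48), where 26.1% of all tested genes were called higher and 25.1% lower. NUF2 was 22.8, 21.4 and 22.4 CPM off drug, against 9.92 and 9.67 CPM under continuous drug, 2.27-fold higher (adjusted p = 5.46e-09). AURKB was 39.6, 34.4 and 32.1 CPM off drug, against 16 and 16.2 CPM under continuous drug, 2.2-fold higher (adjusted p = 3.53e-08). Every off-drug library of these genes was above both continuous ones. KIF20A was 50.6, 44.9 and 49.7 CPM off drug, against 67.5 and 71.9 CPM under continuous drug, and fell by 0.53 (SE 0.08, adjusted p = 3.01e-06). PRC1, which cross-links the microtubules of the central spindle (0.33), and CDC25B (0.31) rose least. TOP2A (0.24), SMC4 (0.21), TPX2 (0.19), ANLN (0.13) and CDC25C (0.09) were not called, with adjusted p from 0.071 to 0.715. All 7 checkpoint members and all 6 centromere and kinetochore members rose, with medians of 0.75 and 0.61. All 3 passenger complex members also rose (median 0.42). Chromosome structure had a median of 0.70, with 4 of 6 called. Of the 13 checkpoint, centromere and kinetochore members, CDC20, CENPF and NDC80 lost the call without continuous replicate 1, and CENPA without continuous replicate 2. CENPE lost it without either of these libraries and without off-drug replicate 3 (adjusted p = 0.116). Its call was also lost in a DESeq2 fit (adjusted p = 0.0704) and with a replicate block (adjusted p = 0.0737).

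The difference between the holidays was tested directly, in a contrast chosen after seeing the data: week 4 off drug minus continuous, less the same at week 2. It was positive and called for all 46 members (median 2.08), where 14.5% of all tested genes were called higher, and for 46 without the 4 libraries that stood apart. MKI67 had the largest value (2.47 ± 0.32 SE, adjusted p = 3.73e-07) and NCAPH, a condensin subunit, the next (2.37 ± 0.15, adjusted p = 5.88e-13). BUB3 (0.72 ± 0.11) and CDC25B (0.52 ± 0.10) had the smallest. KIF20A, lower off drug at both times, still differed by 1.73 ± 0.11. The off-drug groups themselves differed, with 44 members higher at week 4 than at week 2 off drug (median 0.78), where 14.6% of all tested genes were called higher, and 45 without the 4 libraries. NCAPH was 30.4, 27.9 and 27.3 CPM at week 4 off drug, against 12.7, 13.6 and 17.2 CPM at week 2 off drug, 1.96-fold higher (adjusted p = 1.05e-08). CENPF, a kinetochore protein gene, rose 1.92-fold. PTTG1 (0.44) and CDC25B (0.24) rose least, and BUB3 (0.06 ± 0.08, adjusted p = 0.607) and SMC2 (0.29 ± 0.11, adjusted p = 0.0511) were not called. The continuous arm moved the opposite way over the same weeks: the median member stood at 96.5% of untreated at week 2, 60.9% at week 3 and 44.6% at week 4.

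**Figure D4:**
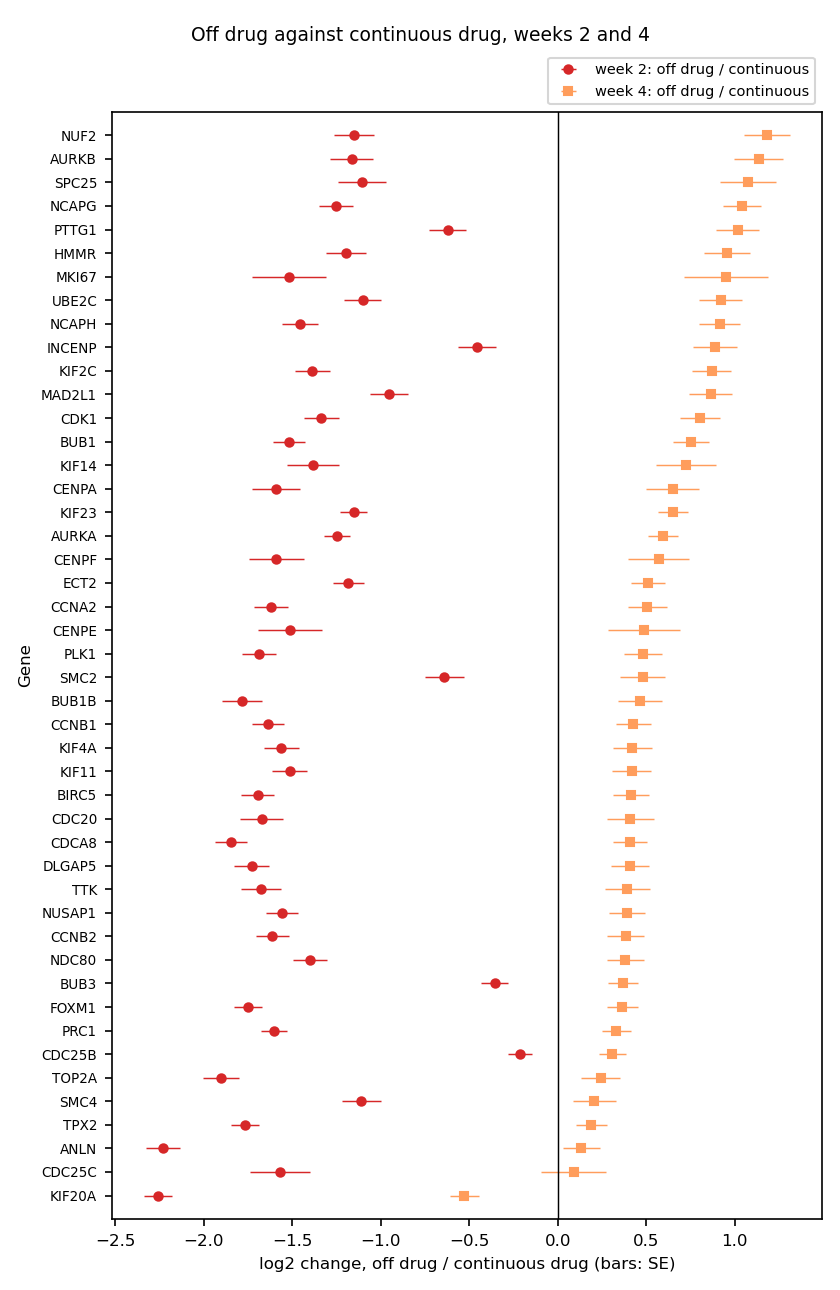
Log2 change, off drug over continuous drug, for the 46 genes (rows, sorted by the week 4 value) at week 2 (red circles) and week 4 (orange squares), bars ± SE. All week 2 values lie below 0, from -2.26 for KIF20A to -0.21 for CDC25B, and all week 4 values but that of KIF20A lie above 0.

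Across the 10 groups, the 46 members together held 4387, 4264 and 4339 CPM in untreated BRAF-V600E cells and 4151, 4092 and 4492 CPM in vector cells. They held 749, 832 and 758 CPM at 20 hours and 2662, 2641 and 2853 CPM at week 1. At week 2 they held 1530, 1571 and 1863 CPM off drug and 4830, 4546 and 4322 CPM under continuous drug. At week 3 the sums were 4567, 4465 and 4538 CPM after rechallenge and 2776, 2799 and 2785 CPM under continuous drug. At week 4 they were 2802, 2519 and 2828 CPM off drug and 1972 and 2004 CPM under continuous drug. The lowest group mean was that of 20 hours for 44 members and that of week 2 off drug for CENPF and FOXM1. From week 1 onward the lowest mean was at week 2 off drug for 29 members and at week 4 continuous for 17. The highest from week 1 onward was at week 2 continuous for 25, at week 3 rechallenged for 19 and at week 4 off drug for INCENP and CDC25B. Per kilobase of exon in untreated cells, PTTG1 (65.2 CPM per kb) and TOP2A (52.2) were highest and TTK (4.72) and CDC25C (3.01) lowest.

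A few members differed in pattern from the rest. ANLN and KIF20A exceeded their untreated level most, at 211% and 168% in week 2 continuous and 201% and 164% in week 3 rechallenged. MAD2L1 was the lowest member relative to untreated cells in every group from week 2 onward, between 15.9% at week 4 continuous and 38.6% at week 2 continuous. INCENP was 72.9, 61.2 and 69.5 CPM at week 4 off drug, against 38 and 35.3 CPM at week 4 continuous. Over the 10 group means, the log2 level of 39 of the other 45 members had a Pearson correlation over 0.9 with MKI67 (median 0.966). BUB1, KIF14 and NCAPH were most like it (0.991 each), and KIF20A (0.776), INCENP (0.827) and MAD2L1 (0.833) least. These are descriptions over group means of genes measured in the same libraries, with no test. KIF20A overlaps BRD8 and CDC23 on the opposite strand, FOXM1 overlaps ITFG2 and RHNO1, ANLN overlaps KIAA0895, NUF2 overlaps RGS5 and CCNA2 overlaps EXOSC9. Many other members also have a gene on the opposite strand, among them SPC25, MAD2L1, HMMR, PLK1, NCAPG, CDC25C and SMC4. Some overlap a gene on the same strand, such as BUB1B with BUB1B-PAK6 and CENPA with SLC35F6. How the counting treated strand is not given in the sources used here. Reads of such pairs may thus be mixed, and the values of all members with an overlap are uncertain.

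Related genes outside the set were counted from lists chosen by function, with earlier results of these data known. Beside these counts, the shares of all tested genes were 25.2% lower and 28.4% higher at 20 hours, 27.9% lower and 27.3% higher at week 2 off drug against continuous drug, 27.8% higher and 28.5% lower at rechallenge, and 26.1% higher and 25.1% lower at week 4 off drug against continuous drug. Of 33 other kinetochore and centromere genes, 30 were lower and 1 higher at 20 hours than in untreated cells, with HJURP, the chaperone that loads CENPA, at -4.40 and CENPT at 0.25, and a median of -2.29 over the list against 0.06 over all tested genes. At week 2 off drug 31 were lower than under continuous drug, led by CENPI at -1.91. At rechallenge 29 were higher than off drug, led by CENPI at 1.92. Of 35 other spindle, motor and cytokinesis genes, 34 were lower and 1 higher at 20 hours, 34 lower and 1 higher at week 2 off drug than under continuous drug, and 34 higher at rechallenge. NEK2, a centrosome kinase, changed by -2.08 at week 2 off drug and CEP55, an abscission protein gene, by 2.06 at rechallenge. Of 25 other regulators of mitotic entry and exit, 22 were lower at 20 hours, led by CDCA5, which encodes the cohesin protector sororin, at -4.23. At week 2 off drug 20 of these 25 were lower than under continuous drug and 3 higher, with ESPL1, the separase gene, at -1.71 and MAD2L1BP, whose product dismantles checkpoint complexes, at 1.01. At rechallenge 19 were higher and 3 lower, with CDCA3 at 1.91 and MAD2L1BP at -0.93.

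Medians were nearer 0 for the core subunits of the anaphase-promoting complex and for other condensin and cohesin genes, and the difference between lists was not tested. Of 14 core subunits of the anaphase-promoting complex, 5 were lower and 1 higher at 20 hours (median -0.15), 8 lower and 1 higher at week 2 off drug than under continuous drug (median -0.33), and 7 higher at rechallenge (median 0.28). The 5 of 14 lower at 20 hours and 8 of 14 at week 2 stand against 25.2% and 27.9% of all tested genes. ANAPC1 changed by -1.04 and ANAPC2 by 0.63 at 20 hours. Of 13 other condensin and cohesin genes, 10 were lower at 20 hours (median -0.76), with the condensin subunit NCAPG2 at -2.39 and the cohesin release factor WAPL at -0.23. At week 4 off drug 7 of these 13 were higher than under continuous drug, led by SMC3 at 0.66, while 24 of the 33 kinetochore genes were higher and 2 lower. Of all tested genes, 26.1% were called higher and 25.1% lower there.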

How the data were processed

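Libraries were made from 100 ng RNA with the NuGEN Universal Plus mRNA-seq kit, per the labels' protocols, after cells had been frozen and RNA of all samples purified together at the end of the course. The deposited table holds the authors' raw read counts per gene. Per the submitters' processing notes, HTSeq 0.6.1, HISAT2 2.0.3, Trimmomatic 0.32 and SAMtools 0.1.18 were used with GRCh38. The annotation release and strand setting are not given in the sources used here. For the rechallenged libraries the table's column names say off drug, while the labels say on drug. They were assigned by week, arm and replicate number, and their DUSP6 level (109 CPM) was near that of the continuous week 3 libraries (103 CPM).

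The quasi-likelihood test of edgeR 4.0.16 (R 4.3.3) was applied to the counts, with filterByExpr (20494 of 60675 genes kept) and TMM factors. A single fit took in the 29 libraries, each group having its own term, with Benjamini-Hochberg adjustment over all tested genes in each of 19 comparisons, called at 0.05. Standard errors were derived from the log2 change and its F statistic. CPM use TMM-scaled library sizes. Positions and overlaps are from GENCODE 29, promoters from RefSeq. The procedure was tested on simulated data, drawn for the real genes and libraries with known fold changes. Other settings tried were a replicate block, the compared groups alone, no count filter, RLE factors, DESeq2 1.42.0, leaving out each library and, chosen after seeing the data, leaving out 4 libraries.

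The members, their role groups and the other gene lists were chosen with earlier results of these data known. Followed in every comparison were MKI67, TOP2A, CCNB1, CDK1, PLK1, AURKB, BUB1B, CENPA, KIF20A, FOXM1, BUB3 and CDC25B. Named besides were the 2 called members with the most positive and the 2 with the most negative change in a comparison, those called against the majority, and from each other list the called gene at either end. INCENP, ANLN, MAD2L1 and members not called were also named after their values were seen. Plots used python 3.11.15 with matplotlib 3.10.9.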

Additional observations from a re-analysis of the deposited data

Results flagged for a closer look

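The change over the second 7 days on drug minus that over the first differed from 0 for 46 of 46 members (edgeR quasi-likelihood test). The log2 differences of the genes named for it were 2.49 for MKI67, 2.57 for TOP2A, 2.04 for CCNB1, 2.2 for CDK1, 2.73 for CDC25C, 2.23 for PLK1, 2.41 for AURKB, 2.44 for BUB1B, 2.5 for KIF20A, 2.39 for CENPA, 2.83 for CENPE and 2.13 for FOXM1, with BUB3 at 0.55 and CDC25B at 0.768. All are positive, that is, the log2 change was higher at rechallenge than in the first week. Rechallenge started from a median of 35.4% of the untreated level. Of all tested genes, 23.3% were called higher in this contrast.

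The change at the second withdrawal minus that at the first differed for 1 member, MAD2L1, at 0.449, where 7.6% of all tested genes were called higher. The MAD2L1 call was lost without week 1 replicate 2 or 3, week 2 off drug replicate 2, rechallenged replicate 1 or week 4 off drug replicate 1. The adjusted p was up to 0.0763 there (edgeR quasi-likelihood test).

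The difference between off-drug and continuous cells changed between weeks 2 and 4 for 46 of 46 members, in a contrast chosen after seeing the data. Of all tested genes, 14.5% were called higher in it. The log2 values were 2.47 for MKI67, 2.14 for TOP2A, 2.06 for CCNB1, 2.14 for CDK1, 2.17 for PLK1, 2.3 for AURKB, 2.25 for BUB1B, 1.73 for KIF20A, 2.24 for CENPA, 2.12 for FOXM1, 2.37 for NCAPH, 0.725 for BUB3 and 0.52 for CDC25B. In each of these contrasts the 2 sides share no library.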

How the results depend on the processing

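Of 754 member calls in 19 comparisons, 708 held under every alternative run, 46 were lost under at least 1 and 0 reversed. Of 120 values not called, 38 changed sign and 27 were called under at least 1 alternative. DESeq2 or RLE factors or no filter moved the median of all genes by at most 0.0566 (log2). For BRAF-V600E against vector cells, with 5 members called, the compared groups alone gave 10 and leaving out single libraries 3 to 6. For the second against the first withdrawal, with 1 called, DESeq2 gave 2, leaving out single libraries 0 to 4 (0 without week 1 replicate 2 or 3 or week 2 off drug replicate 2), and leaving out the 4 libraries that stood apart 7. The cause was not tested. In the other 17 comparisons every count of called members stayed within 1.5 times its value.

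Libraries with the same replicate number did not vary together: in 0 of 16 comparisons were all same-number correlations over 0.1 (range -0.214 to 0.112). With so few libraries per group, this cannot decide whether the replicates were grown as pairs. With a replicate block the second against the first withdrawal had 2 members called, and no other count of called members moved by over 1.5 times. With 2 libraries at week 4 continuous, leaving out 1 assumes that the other varies like the remaining groups. At 20 hours the lowest member, SPC25, rests on 23 to 35 counts per library.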

Other observations

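Genes of DNA replication, which act before mitosis, moved in the same directions as the mitotic set. Of all tested genes, 25.2% were called lower at 20 hours and 27.9% at week 2 off drug against continuous drug. At rechallenge 27.8% were called higher, and 26.1% at week 4 off drug against continuous drug. Of 26 replication genes, 26 were lower at 20 hours than in untreated cells (median -2.82), from MCM10 at -5.42 to PCNA at -1.41. At week 2 off drug 25 were lower than under continuous drug (median -0.90), led by POLE2 at -1.51, and at rechallenge 25 were higher than off drug (median 0.89), led by TYMS at 1.58. At week 4 off drug 26 were higher than under continuous drug (median 0.69), led by CDC6, a replication licensing factor, at 1.54.

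Transcription regulators of the cell cycle were divided. Of all tested genes, 25.2% were lower and 28.4% higher at 20 hours, 27.9% lower and 27.3% higher at week 2 off drug, 27.8% higher and 28.5% lower at rechallenge, and 26.1% higher and 25.1% lower at week 4 off drug. Of 23, 17 were lower and 5 higher at 20 hours, with the S-phase activator E2F2 at -5.51 and the MuvB subunit gene LIN37 at 0.83. At week 2 off drug 14 were lower and 7 higher than under continuous drug, with MYBL1 at -2.44 and the repressor E2F7 at 0.96. At rechallenge 13 were higher and 6 lower than off drug, with MYBL1 at 2.62 and E2F7 at -0.96. At week 4 off drug 13 were higher and 5 lower than under continuous drug, with E2F7 at 1.90 and TFDP2 at -1.34.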
